A study of Mus musculus with 6 samples.

Results

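The distal chromosome 4 zinc-finger cluster is a stretch of mouse chromosome 4 in which KRAB zinc-finger genes alternate with pseudogenes and non-coding transcripts. Its members were taken by position alone, as every row of the authors' deposited gene table with a start from 145000000 to 147900000 on chromosome 4 (mm10), whatever its test status. This gave 95 of the 55331 genes in the table. The stretch itself had been drawn after the Ptbp1_cKO and control values of its genes were known, so everything below describes that contrast and tests nothing about the choice of region.

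Polyadenylated RNA of whole testes was sequenced in 6 libraries from mice aged 35 days, with the strain given as mixed. The 3 control libraries were from Ptbp1fl/fl mice, which carry floxed Ptbp1 alleles, with no Cre named in the genotype. The 3 Ptbp1_cKO libraries were from Ptbp1fl/fl; Amh-Cre+/- mice, in which the Amh promoter drives Cre recombinase in Sertoli cells, the somatic cells that enclose and nourish the germ cells. Both groups therefore carry the floxed alleles, and no group carried Amh-Cre without them, so the deletion and the transgene cannot be told apart. With the strain mixed, a difference in genetic background between the groups cannot be told apart from them either. The series set out to examine PTBP1, an RNA-binding regulator of splicing, in Sertoli cell function. Separate animals for the libraries are not named in the labels, so the deposited p-values may measure only technical spread. Levels are the authors' FPKM values (fragments per kilobase of transcript, scaled to the mapped fragments), 1 per group with none per library, and hence carry no SD. The pairs of FPKM values below give control first and Ptbp1_cKO second.

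KRAB zinc-finger proteins are the largest family of DNA-binding repressors in mammals. A string of C2H2 zinc fingers, each holding a zinc ion between a pair of cysteines and a pair of histidines, reads a DNA sequence, and the KRAB domain recruits the co-repressor TRIM28, which brings the histone methyltransferase SETDB1 and heterochromatin proteins. Many of these proteins bind and silence transposable elements. Their genes multiply by tandem duplication, which leaves clusters of similar genes and of decayed copies.

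The label of a zinc-finger cluster held for a minority of its rows. By the annotation, 26 of the 95 members were protein coding, 61 were pseudogenes and 8 were non-coding RNA genes. Of the coding members, 20 held at least 1 C2H2 finger in the translated GENCODE coding sequence, and all 20 also held a KRAB motif. A further coding member, Gm21411, held a KRAB motif without a finger. The 20 genes encoded from 2 fingers (Zfp993) to 20 fingers (Gm13212), with a median of 11.5. Counting only proteins with at least 3 fingers, the median was 12 in the cluster and 10 among 519 such genes elsewhere in the genome, of which 199 held a KRAB motif. On the chromosome, 16 of the 20 lay on the plus strand, and the 4 on the minus strand were Zfp979, Zfp534, Zfp984 and Zfp933, which are the 4 most distal of the 20.

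The proteins of the 20 genes were close relatives. Over all 190 pairs the identity of the aligned residues ran from 38.6% to 99.7%, with a median of 72.4%. The extreme pair was Zfp991 and Zfp993, at 99.7% over 313 residues. Zfp978 was 95.4% identical to Rex2, 95.1% to Zfp600 and 94.5% to Zfp980, each over 329 residues. Zfp984 was closest to Gm13212 (94.9% over 547 residues), and Zfp990 to Zfp986 (89.0% over 401 residues).

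Promoters of several members were also near-identical, and 6 are printed because they set 3 genes that were lower in Ptbp1_cKO (Zfp600, Zfp984 and the non-coding 4933438K21Rik) beside the near-identical promoters of 3 genes that did not pass the test (Zfp979, Gm13212 and 1700095A21Rik). Each is the 300 bases around the start of the gene in the RefSeq promoter table (build GRCm38.p6, the assembly called mm10), from 250 bases before the start to 50 after it, read 5′ to 3′ on the strand of the gene. Capitals mark the run TATTGGGCGGGTCCAG in the first 4 and the letters TGACATCA in the last 2.
Zfp600, chr4:146156577-146156876, plus strand: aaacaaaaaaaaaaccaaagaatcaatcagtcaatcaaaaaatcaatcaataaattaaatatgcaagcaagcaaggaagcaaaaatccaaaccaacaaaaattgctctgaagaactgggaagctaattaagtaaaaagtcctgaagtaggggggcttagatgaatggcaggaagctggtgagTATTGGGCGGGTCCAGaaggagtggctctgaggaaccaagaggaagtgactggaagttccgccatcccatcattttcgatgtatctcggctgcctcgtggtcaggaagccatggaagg
Zfp979, chr4:147642459-147642758, minus strand: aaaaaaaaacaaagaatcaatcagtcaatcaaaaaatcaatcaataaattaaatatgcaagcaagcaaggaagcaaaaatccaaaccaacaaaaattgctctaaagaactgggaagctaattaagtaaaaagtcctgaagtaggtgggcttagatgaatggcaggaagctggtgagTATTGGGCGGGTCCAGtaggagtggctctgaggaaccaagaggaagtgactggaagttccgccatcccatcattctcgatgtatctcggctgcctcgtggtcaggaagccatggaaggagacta
Zfp984, chr4:147809739-147810038, minus strand: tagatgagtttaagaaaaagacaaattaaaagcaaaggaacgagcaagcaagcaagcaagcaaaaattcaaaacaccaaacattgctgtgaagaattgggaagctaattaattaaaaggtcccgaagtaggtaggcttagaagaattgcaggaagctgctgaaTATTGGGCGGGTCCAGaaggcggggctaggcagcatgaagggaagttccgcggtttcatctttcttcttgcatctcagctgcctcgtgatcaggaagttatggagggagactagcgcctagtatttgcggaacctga
Gm13212, chr4:145584950-145585249, plus strand: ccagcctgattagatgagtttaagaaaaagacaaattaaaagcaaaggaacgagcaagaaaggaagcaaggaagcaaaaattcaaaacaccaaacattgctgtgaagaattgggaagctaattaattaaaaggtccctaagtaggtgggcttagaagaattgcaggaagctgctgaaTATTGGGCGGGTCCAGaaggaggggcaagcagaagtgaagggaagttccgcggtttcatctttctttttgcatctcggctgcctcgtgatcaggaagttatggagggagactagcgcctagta
4933438K21Rik, chr4:147068387-147068686, minus strand: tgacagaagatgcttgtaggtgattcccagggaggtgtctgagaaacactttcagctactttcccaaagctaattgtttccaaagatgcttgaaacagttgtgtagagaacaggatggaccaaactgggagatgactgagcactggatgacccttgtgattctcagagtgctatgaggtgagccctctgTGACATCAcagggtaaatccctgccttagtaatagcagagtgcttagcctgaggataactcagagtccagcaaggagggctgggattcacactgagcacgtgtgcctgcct
1700095A21Rik, chr4:146546824-146547123, minus strand: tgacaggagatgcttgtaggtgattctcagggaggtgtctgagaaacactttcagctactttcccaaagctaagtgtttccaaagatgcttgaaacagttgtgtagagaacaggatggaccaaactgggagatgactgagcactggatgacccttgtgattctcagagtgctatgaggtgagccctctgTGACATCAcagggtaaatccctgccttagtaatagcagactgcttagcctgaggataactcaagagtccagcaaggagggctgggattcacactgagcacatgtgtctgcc

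The promoters of Zfp600 and Zfp979 were 98.3% identical over 294 aligned bases, those of Zfp984 and Gm13212 96.8% over 285, and those of 4933438K21Rik and 1700095A21Rik 98.0% over 299. The promoter of Rex2 was 100% identical to that of Zfp600 over 299 bases. The run TATTGGGCGGGTCCAG, which was picked out after the sequences had been read, was sought on both strands and contains the complement of the CCAAT box. It is the longest run with that complement found in at least 9 of the 19 member promoters whose table start lay within 100 bases of the annotated start. It was held by those of Gm13212, Zfp980, Zfp600, Rex2, Zfp988, Zfp982, Zfp985, Zfp979 and Zfp984, and by no other among all 32851 promoters in the table (0.0274% of them). In the printed sequences it began 68 bases before the start of Zfp600, 74 before that of Zfp979, 87 before that of Zfp984 and 73 before that of Gm13212. The letters TGACATCA, a relative of the cyclic-AMP response element TGACGTCA, began 61 bases before the start in both non-coding genes and occurred in 2 of the 19 member promoters against 3.62% of all promoters, counting both strands. CCAAT, which overlaps the run, was present in 13 of the 19 against 37.4% of all, and TATAAA in none of the 19 against 13.6%. The member promoters held a median of 5 CpG dinucleotides and all promoters a median of 7. These matches describe letters in the window and no binding was measured.

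In Ptbp1_cKO, 8 of the 46 members tested by Cuffdiff were lower and none was higher, at a q below 0.05 as listed in the authors' deposited table. Over all 22048 tested genes, 0.703% were lower and 0.458% higher by the same rule, and since the stretch was chosen on this contrast nothing is read from the excess. Without the correction, 12 members were lower and 3 higher at p under 0.05, against 4.59% and 4.38% of all tested genes. With a normal p computed from the deposited statistic, 4 members remained past the threshold (Zfp990, Zfp978, Gm13165 and 4933438K21Rik), and Zfp600, Zfp984, Gm13230 and Gm13034 did not pass. By that rule the whole table held 10 lower and 9 higher genes. The 8 comprised the zinc-finger genes Zfp990, Zfp978, Zfp600 and Zfp984, the zinc-finger pseudogene Gm13230, the Smarca5 pseudogene Gm13034, and the non-coding Gm13165 and 4933438K21Rik. Except for Zfp600, all of them shared a Cuffdiff p of 5e-05 and a q of 0.00848. Without Zfp600, their test statistics ran from -13.7 for Zfp990 to -2.46 for Gm13034, so this shared q does not rank them. Zfp600, with a Cuffdiff p of 0.0001, had the weakest statistic of the 8, at -1.64. By a rule of size that does not use p, 7 of the 31 members with at least 1 FPKM in control stood at or below 50% of it, against 0.441% of 15425 such genes in the table. One of the 7 is Platr16, listed at 0 in Ptbp1_cKO, and without it there are 6. Among the 15415 of these that were above 0 in Ptbp1_cKO, Zfp990, Zfp978 and Gm13165 had the 3 largest proportional falls of the whole table. Gm13230 was number 7, Gm13245 number 11, 4933438K21Rik number 33 and Zfp984 number 81. Gm13245 is 260 bases long. The length deducted to give an effective length was 252 bases in control and 262 in Ptbp1_cKO. The rank of Gm13245 and its place in the rule of size are therefore uncertain.

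**Figure D1:**
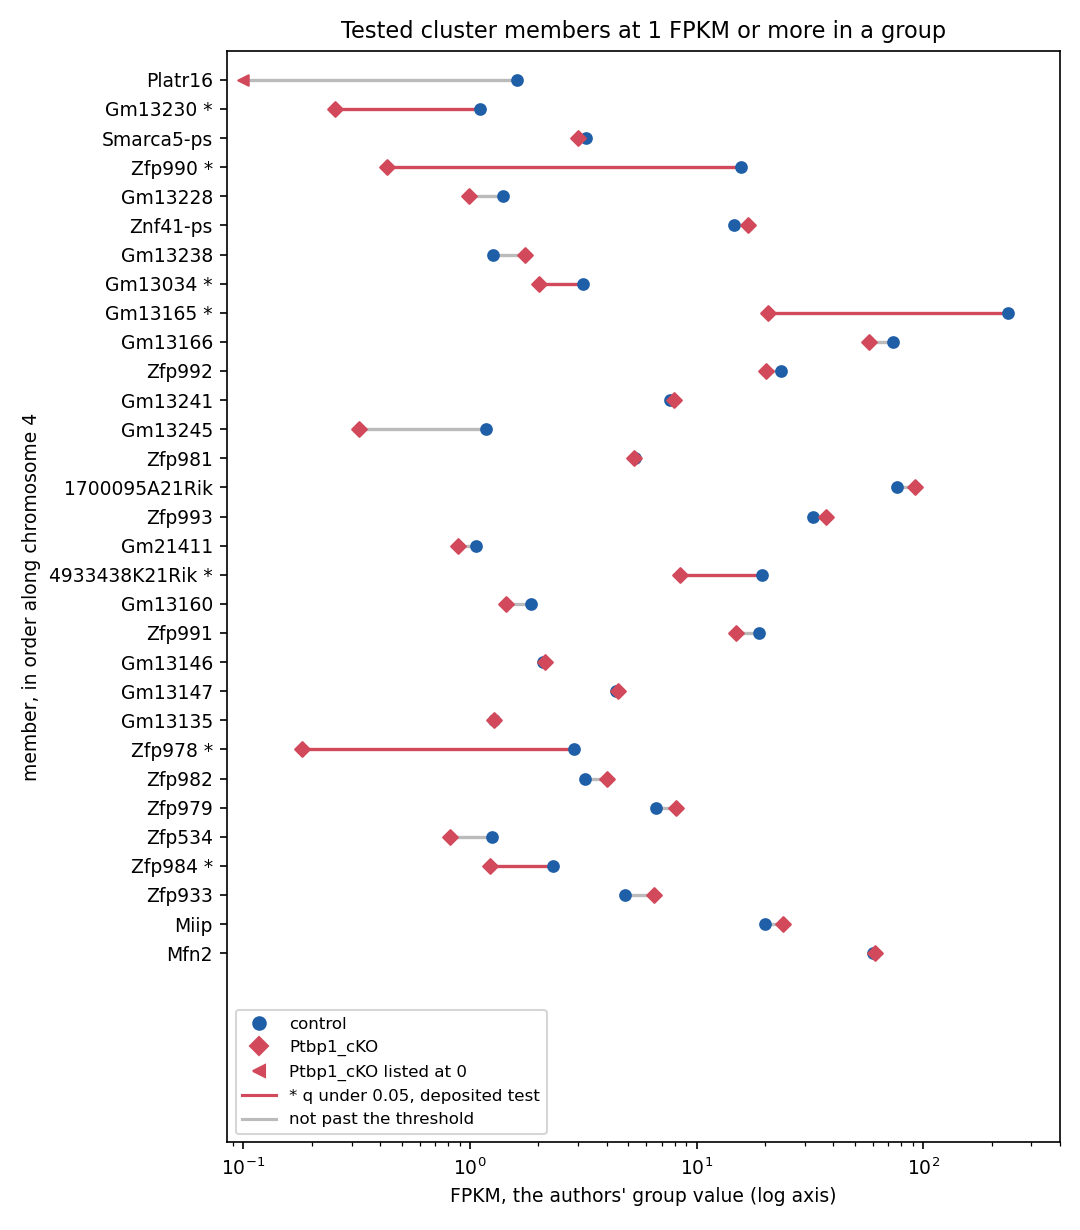
Group FPKM (log axis) of the 31 tested members with at least 1 FPKM in a group, in chromosome order, with circles for control and diamonds for Ptbp1_cKO; an arrowhead at the left edge marks a value listed at 0, and red lines with asterisks mark q under 0.05 in the deposited test. Zfp990, Zfp978 and Gm13165 span the longest distances between control and Ptbp1_cKO among members above 0 in both, while most other members have overlapping or adjacent symbols.

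Among the zinc-finger genes, Zfp990 (ENSMUSG00000078503.9, chromosome 4, 145510759 to 145539188, plus strand), which encodes 13 fingers, went from 15.6 FPKM in control to 0.431 FPKM in Ptbp1_cKO, or 2.76% of control. The log2 fold change in the authors' deposited table was -5.18, with a test statistic of -13.7 and q = 0.00848. Zfp990 was thus the fourth most abundant zinc-finger gene of the cluster in control and the twelfth in Ptbp1_cKO. No other transcript of the annotation matched its longest transcript at 95% identity over 80% of the length; the nearest was Zfp988, at 91.9% over 65%.

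Zfp978 (147361303 to 147391004, plus strand), a short member with 3 fingers, went from 2.86 to 0.181 FPKM. Its log2 fold change was -3.98 and its q 0.00848, both from the authors' deposited table. Its transcript was near-identical to Rex2, Zfp600 and Zfp980, so fragments may have been shared among the 4 and its value is uncertain. The other 3 were scarce in both groups. Zfp600 (146156824 to 146198755), with 17 fingers, stood at 0.299 FPKM in control and 0.0387 in Ptbp1_cKO, with a log2 fold change of -2.95 and q = 0.0151 by the authors' deposited table. Rex2 stood at 0.118 and 0.0357 FPKM and Zfp980 at 0.0763 and 0.0287 FPKM, and neither was tested. All 4 of these related genes were listed lower in Ptbp1_cKO than in control.

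Zfp984 (147753974 to 147809788, minus strand), with 11 fingers, moved less. It went from 2.32 to 1.22 FPKM, for which the authors' deposited table lists a log2 fold change of -0.93 and a q of 0.00848. Its relative Gm13212, whose promoter is printed above, stood at 0.885 FPKM in control and 0.986 in Ptbp1_cKO and did not pass the test. Zfp979, listed by RefSeq under the synonym Ssm1b and sharing the Zfp600 promoter type, stood at 6.61 and 8.09 FPKM (q = 0.431, from the authors' deposited table). The 3 printed promoter pairs were chosen to set a gene past the threshold beside one that was not. Another near-identical pair, Zfp534 and Zfp987 (98.8% over 251 bases), held no gene past it. The closest pair, Rex2 and Zfp600 (100% over 299 bases), held Zfp600, which passed, and Rex2, which was not tested. Rex2 and Zfp600 were both listed lower in Ptbp1_cKO. The difference between the genes of a pair was not tested.

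The zinc-finger genes of the cluster that were more abundant than Zfp990 in control did not pass the test. Zfp993 stood at 32.4 FPKM in control and 37.2 in Ptbp1_cKO, Zfp992 at 23.4 and 20.2, and Zfp991 at 18.8 and 14.9, with q = 0.985, 0.523 and 0.136 in the authors' deposited table. Before correction the deposited p was 0.336 for Zfp993, 0.0431 for Zfp992 and 0.0031 for Zfp991, the latter pair being lower in Ptbp1_cKO. With the pseudogene Znf41-ps, at 14.6 and 16.8 FPKM, these genes form a group in which each matched Zfp991 at over 99% of aligned transcript bases, so single values are uncertain. The sum of the 4 was 89.3 FPKM in control and 89.1 in Ptbp1_cKO.

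Between these extremes lay Zfp981 at 5.34 and 5.27 FPKM, Zfp933 at 4.83 and 6.50, and Zfp982 at 3.20 and 4.001, none past the threshold. Zfp534 stood at 1.25 and 0.818 FPKM, with an unadjusted p of 0.00185 and q = 0.0983 by the authors' deposited table. The fingerless Gm21411 stood at 1.06 and 0.880 FPKM. Below 1 FPKM in both groups, Zfp986 (0.572 and 0.608 FPKM), Zfp988 (0.442 and 0.363) and Zfp985 (0.196 and 0.161) did not pass, and Zfp987 and Zfp989 were not tested, at 0.0841 FPKM or less.

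Summed over the 20 genes with fingers, the level was 119.5 FPKM in control and 101.2 in Ptbp1_cKO, or 84.7% of control. The 4 genes that fell summed to 21.1 FPKM in control and 1.87 in Ptbp1_cKO, and the other 16 to 98.4 and 99.3 FPKM. The 4 genes were set apart because they were lower in this contrast, so the split restates the calls. Zfp990 made up most of their fall. The sum of the other 16 joins genes that were higher with genes that were lower.

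**Figure D2:**
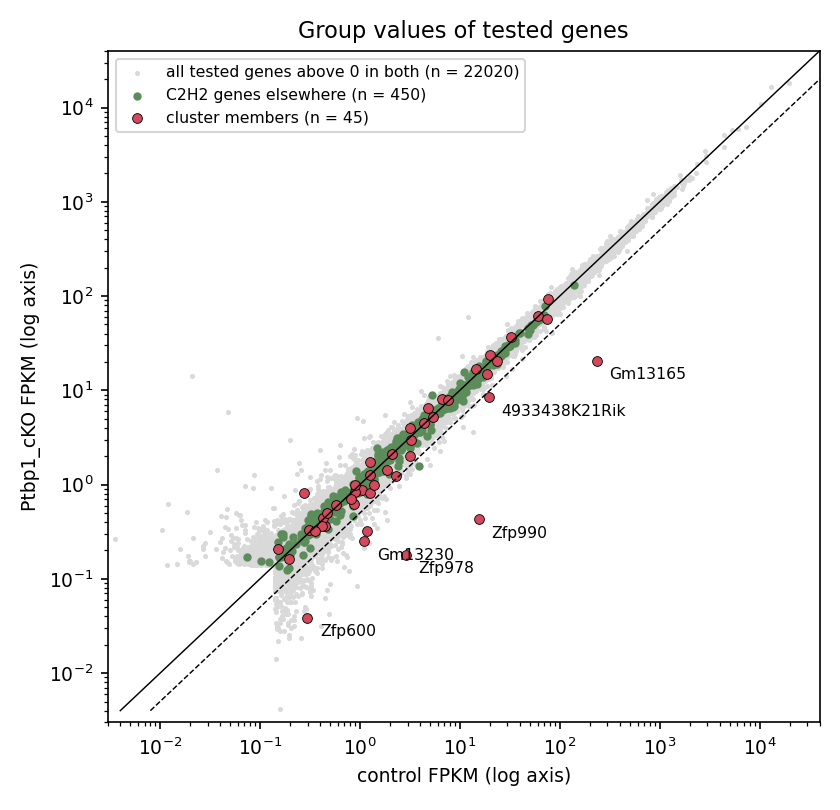
Control FPKM (x, log axis) against Ptbp1_cKO FPKM (y, log axis) of the 22020 tested genes above 0 in both groups (grey), of 450 C2H2 genes elsewhere (green) and of 45 cluster members (red); the solid line marks equal values and the dashed line 50% of control. Zfp990, Zfp978 and Gm13165 lie farthest below the dashed line among genes of at least 1 FPKM in control.

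The 8 non-coding members summed to 407.6 FPKM in control and 179.4 in Ptbp1_cKO, of a total over all 95 members of 657.5 and 415.2 FPKM. Gm13165 carried most of this drop, and the other 7 summed to 171.7 FPKM in control and 158.8 in Ptbp1_cKO. Of these 8, 6 were tested and 2 were lower. Gm13165 (146167522 to 146205732, minus strand), which overlaps Zfp600 on the opposite strand, went from 235.9 to 20.6 FPKM, for which the authors' deposited table lists a log2 fold change of -3.52 and a q of 0.00848. Its annotated transcripts are 383 and 252 bases long, so its FPKM rests on a very short effective length and should not be set beside that of longer genes. Whether strand was used in counting is not stated, so fragments from the sequence that both genes cover could not be told apart.

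The non-coding 4933438K21Rik (147063366 to 147068436, minus strand) went from 19.5 to 8.44 FPKM, with a log2 fold change of -1.20 and q = 0.00848 by the authors' deposited table. The gene with the matching promoter, 1700095A21Rik, which overlaps Zfp981 on the opposite strand, stood at 76.6 and 92.3 FPKM (q = 0.413, from the authors' deposited table). Gm13166 stood at 73.8 and 57.8 FPKM (q = 0.587, from the authors' deposited table). Platr16, a transcript named for its association with pluripotency, stood at 1.62 FPKM in control and was listed at 0 in Ptbp1_cKO, with p = 0.0542 and q = 0.572 by the authors' deposited table. Its transcripts are 545 and 375 bases long, and an exact 0 in such a table can be a failed estimate, so no fold is given. The other tested non-coding member, Gm20707, stood at 0.150 and 0.205 FPKM.

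Most pseudogenes had low FPKM values. Of the 61, 36 were under 0.1 FPKM in both groups, 19 of these listed at 0 in both, and 12 reached 1 FPKM in a group. Of the 61, 18 were tested and 2 were lower. Gm13230 (145446740 to 145450888), a decayed zinc-finger gene that overlaps Platr16 on the same strand, went from 1.10 to 0.253 FPKM, with a log2 fold change of -2.12 and q = 0.00848 by the authors' deposited table. For its single transcript of 1575 bases these levels stand for about 329 and 68 fragments over the libraries of a group. The other two zinc-finger pseudogenes did not pass: Znf41-ps, given above, and Gm13147 at 4.41 and 4.50 FPKM.

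Processed copies of other genes were scattered among the zinc-finger genes. All 6 copies of Smarca5, which encodes an ISWI chromatin remodeller, were tested. Gm13034 (146067752 to 146070928) fell from 3.16 to 2.02 FPKM, with a log2 fold change of -0.64 and q = 0.00848 by the authors' deposited table. The remaining copies included Smarca5-ps at 3.23 and 2.98 FPKM and Gm13135 at 1.27 in both groups. Gm13034 was near-identical to the other 5 copies and to Smarca5 itself, which stood at 44.0 FPKM in control and 39.6 in Ptbp1_cKO (q = 0.808, from the authors' deposited table), so its value is uncertain.

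The 9 Cdv3 copies summed to 11.5 and 12.3 FPKM, and 4 were tested with none past the threshold: Gm13241 (7.64 and 7.96 FPKM), Gm13146 (2.09 and 2.13), Gm13238 (1.26 and 1.75) and Gm20760 (0.354 and 0.318). Of 7 Hmgb1 copies, 1 was tested, Gm13228, at 1.39 and 0.991 FPKM, and of 4 Hmgb2 copies, 1 was tested, Gm13160, at 1.86 and 1.43 FPKM. Of 9 copies of the ribosomal protein gene Rplp1, 7 were listed at 0 in both groups, and Gm13245, 260 bases long, stood at 1.18 and 0.324 FPKM with p = 0.284 and q = 0.946 by the authors' deposited table. Thus Gm13245 met the rule of size without passing the test. None of the 5 Tlk2 copies, 4 Ppp2r5a copies or 7 Vmn2r vomeronasal receptor pseudogenes was tested. Over the whole stretch 62 of the 95 members, and 7 of the 20 zinc-finger genes, had a near-identical copy (at least 95% identity over at least 80% of the transcript), and fragments of such copies may be divided unevenly among them.

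**Figure D3:**
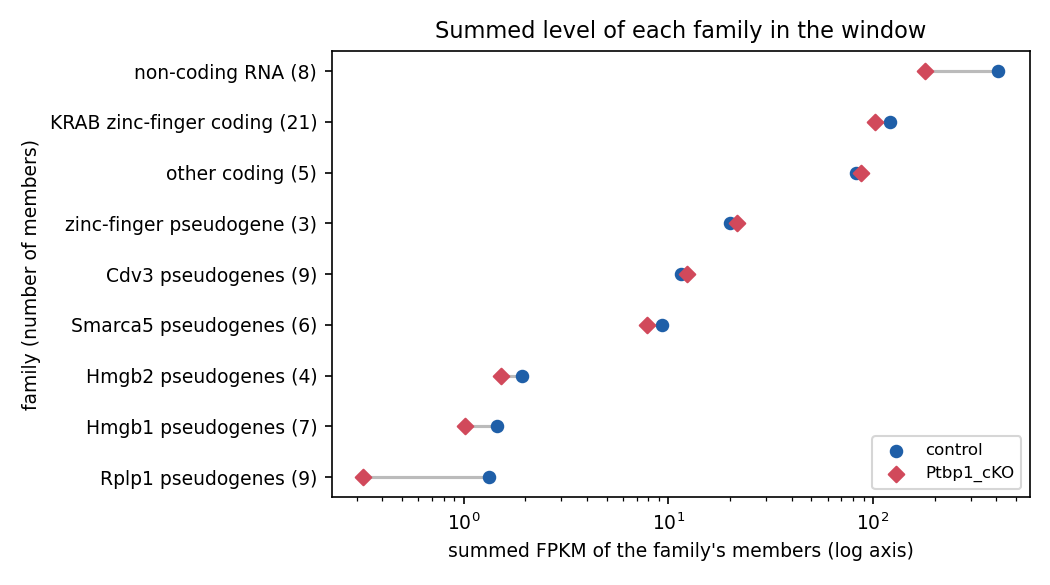
Summed FPKM (log axis) of each family of members whose sum reached 1 FPKM in a group, with circles for control, diamonds for Ptbp1_cKO and the number of members in brackets. The non-coding RNA sum drops from 407.6 to 179.4 FPKM through the very short Gm13165 (171.7 and 158.8 FPKM without it), the Rplp1 copies lie apart because of Gm13245, and the other families differ less.

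At the edges of the stretch stood 5 coding genes with other functions, all tested and none past the threshold, which summed to 82.4 FPKM in control and 87.0 in Ptbp1_cKO. Mfn2, which encodes the mitochondrial fusion protein mitofusin, stood at 60.2 and 61.3 FPKM, and Miip at 20.1 and 23.96. The retroviral restriction gene Fv1, itself derived from a retroviral gag gene, stood at 0.893 and 0.844 FPKM. The tumour necrosis factor receptor genes Tnfrsf8 and Tnfrsf1b stood at 0.871 and 0.629 FPKM and at 0.310 and 0.334 FPKM.

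The 8 lower members were not contiguous. From Gm13230 the next, Zfp990, began 59.9 kb further on with 1 tested member between, and Gm13034 followed after 528.6 kb and 6 tested members. Zfp600 began 85.9 kb beyond Gm13034 with none between, and overlaps Gm13165. A gap of 857.6 kb with 10 tested members led to 4933438K21Rik, one of 292.9 kb with 6 to Zfp978, and one of 363.0 kb with 5 to Zfp984. The 23 tested members of at least 1 FPKM in a group and above 0 in both that did not pass ranged from 27.6% of control for Gm13245 to 138.7% for Gm13238.

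**Figure D4:**
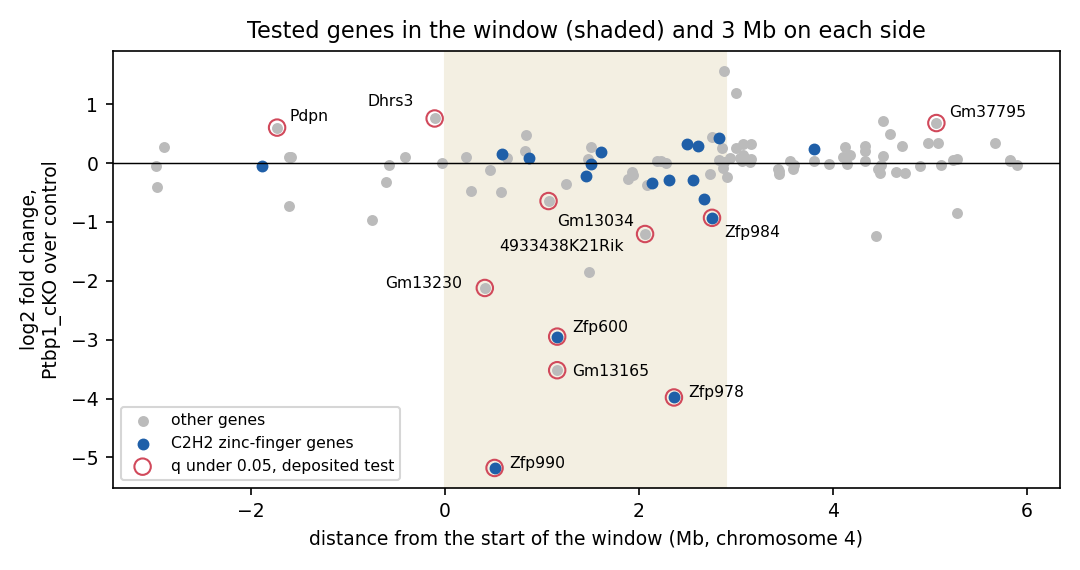
Log2 fold change of Ptbp1_cKO over control in the deposited table (y) against distance from the start of the stretch in Mb (x), for tested genes above 0 in both groups inside it (shaded) and within 3 Mb on each side; blue points are C2H2 genes and red rings mark q under 0.05. All 8 ringed genes inside the shading lie below 0, with uncalled genes among them, and the 3 ringed genes outside it lie above 0.

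The neighbouring sequence gave no lower gene at the deposited Cuffdiff q. At an unadjusted Cuffdiff p under 0.05, 3 of the 14 tested genes before the stretch were lower and 2 were higher. Of the 50 tested after it, 1 was lower and 5 were higher. Over all tested genes these shares were 4.59% lower and 4.38% higher. In the 3 Mb before the stretch, 14 of 85 genes were tested. At q under 0.05 none of them was lower and 2 were higher, Pdpn (3.01 and 4.57 FPKM) and Dhrs3 (2.40 and 4.05 FPKM). In the 3 Mb after it, 50 of 96 were tested. By the same q none was lower and 1 was higher, the predicted Gm37795 (1.29 and 2.07 FPKM). At the boundaries, the nearest row outside on the near side, Vps13d, stood at 22.6 and 22.5 FPKM beside Tnfrsf1b just inside, and the nearest outside on the far side, Plod1, at 2.06 and 1.74 FPKM beside Gm13156 (0.277 and 0.823 FPKM, q = 0.999 from the authors' deposited table) just inside. Gm13156 lies on the opposite strand of Mfn2.

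C2H2 genes elsewhere were also set beside the cluster. Of 519 genes with at least 3 fingers, 450 were tested, 2 were lower (Zfp239, 2.38 and 1.57 FPKM, and Zfp458, 4.73 and 3.31 FPKM) and 2 were higher (Osr2 and Zfp362). Among the 174 tested genes of these with a KRAB motif, 1 was lower (Zfp458) and none higher. At or below 50% of control stood 1 of 323 C2H2 genes with at least 1 FPKM in control (Gm15446, 3.88 and 1.59 FPKM), against 2 of 11 zinc-finger members of the cluster. The finger minimum differed, at 3 for the genes elsewhere and 1 for the members, so the 11 include Zfp993 with 2 fingers. Over members with at least 0.1 FPKM in a group, the median difference of log2(FPKM + 1), a scale that understates the change of low genes, was -0.04 (22 above 0 and 32 below, of 54) against 0.004 over all genes, -0.01 in the 3 Mb before, 0.03 in the 3 Mb after and 0.01 in C2H2 genes elsewhere. The median depended on the scale and was -0.13 over members of at least 1 FPKM in a group. No test of the difference between these sets was made.

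The genes through which KRAB zinc-finger proteins act did not pass the test in either direction. Of the 30 names on the list of co-repressor and heterochromatin genes, 29 matched a row and only the name Fam208a did not. All 29 were tested, with 12 above 0 and 17 below 0 in log2 fold change and none called by the deposited Cuffdiff test or at an unadjusted p under 0.05. Trim28, the co-repressor bound by the KRAB domain, stood at 178.4 FPKM in control and 176.8 in Ptbp1_cKO, the remodeller Chd4 at 149.5 and 141.9, the histone methyltransferase gene Ehmt2 at 80.1 and 87.0, and Mphosph8, a subunit of the HUSH silencing complex, at 59.5 and 53.7. Of 17 genes listed as near retroviral elements or silenced by KRAB zinc-finger proteins, 16 matched a row, 3 were tested (Spz1, Zfp57 and Abcb4) and none passed.

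For the series as a whole, Ptbp1 stood at 49.97 FPKM in control and 46.7 in Ptbp1_cKO (q = 0.999, from the authors' deposited table), a whole-testis level that does not check the labels because most cells are not Sertoli cells. Low FPKM values moved in steps that gave about 225 fragments per FPKM at an effective length of 1 kb over the control libraries and 204 over the Ptbp1_cKO libraries. All marker lists held detected genes. All 11 Sertoli markers lay above 0 in log2 fold change and summed to 995.7 and 1366 FPKM, with 1 called higher (Clu, which carried most of the rise; 142.1 and 166.8 FPKM without it). Of the germ cell lists, 6 of 7 spermatocyte markers and 5 of 6 round spermatid markers lay below 0, with sums of 808.3 and 734.5 FPKM and of 739.7 and 678.4 FPKM and none called. The other germ cell lists went the other way. Above 0 lay 5 of 6 spermatogonial markers (82.1 and 98.0 FPKM in sum) and 4 of 5 tested elongating spermatid markers (45362 and 47987 FPKM). Called higher were also 1 of 6 Leydig cell (Insl3), 2 of 6 spermatogonial (Kit and Uchl1), 2 of 8 leukocyte (C1qb and Fcer1g), 2 of 6 stromal (Dcn and Col1a1) and 1 of 3 tested epididymal markers (Crisp1), the last list summing to 0.353 and 6.63 FPKM with Lcn8 at 0. All 8 leukocyte, 6 stromal and 5 endothelial markers lay above 0, and 4 of 6 Leydig cell markers below 0, among them Star (85.5 and 63.6 FPKM). None of 5 peritubular myoid, 5 tested elongating spermatid, 5 endothelial or 5 blood cell markers was called, and Prm2, marked as having too much data, was listed at 0 in both groups. The part of these shifts in the lower values of the cluster was not tested, and in whole testis fewer cells of a type and less RNA per cell cannot be told apart.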

How the data were processed

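PolyA RNA of whole testes was made into stranded TruSeq libraries, per the labels' protocols. Tools named by the submitters' processing notes are Cuffdiff, Cufflinks, STAR 2.6.1d, Trimmomatic 0.38 and bcl2fastq 2.20, on build mm10. Their roles, the version and normalisation of Cuffdiff and the gene annotation used are not given in the sources. The authors' deposited table holds 1 FPKM per group, a log2 fold change, a signed score (the test statistic) and a p-value with its q-value, per the file headers. Calls are q under 0.05 among tested rows, as the authors deposited them. The members, gene lists and named genes (all tested members with at least 1 FPKM in a group, all called members and those at the ends) were chosen with earlier results of these data known; any other gene named was chosen after its values were seen.

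Positions, transcripts and coding sequences came from GENCODE M21 on the same build, which matched 98.6% of identifiers with their version and 94 of the 95 members; Gm21411 was matched without it. C2H2 and KRAB motifs were counted in translated coding sequences. Copies were sought with BLAST 2.17.0, and proteins and promoters aligned with Biopython 1.88. Promoters came from the RefSeq table, which held 22 members. Fragment weights were read as 3 peaks per group among low values of single-exon genes. All 250 control and 272 Ptbp1_cKO values near the weight of 1 fragment lay within 1% of 1 of these 3 weights. Uniform values would do so in 12.9% and 20.2% of cases. The weights came from the same values, so this match is partly built in. At 1 kb, 3 fragments in a library equal at most 0.0151 and 0.0154 FPKM, for counting error only. The Benjamini-Hochberg step and the fragment weights were tested on simulated data. The closing section gives the alternatives. A result on other genes of chromosome 4 is not reported here.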

Additional observations from a re-analysis of the deposited data

How the results depend on the processing

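No paired analysis was possible because the deposited columns carry 1 value per group and none per library; for the same reason no library could be left out. The count of 8 lower members became 4 with a normal p from the deposited statistic (Zfp990, Zfp978, Gm13165 and 4933438K21Rik, of 10 lower and 9 higher genes in the table), and 4 when only members with C2H2 fingers were counted. It was 7 at q under 0.01 or with genes of at least 1 FPKM readjusted, and 6 without members that have a near-identical copy, an alternative chosen after seeing the data. The 7 at q under 0.01 all carried the same deposited q of 0.00848, so that setting could only drop Zfp600. No member was higher under these 5 settings. For q under 0.01, the readjusted q and the set without near-identical copies, no share over all genes is given. Those counts are therefore not read as an excess. The median difference of -0.04 became -0.14 with a pseudocount of 0.1, 0 with no FPKM minimum and -0.13 at 1 FPKM or more, and stayed at -0.04 after rescaling. The count of 7 members at or below 50% of control was 7 at a control minimum of 0.5 FPKM or after rescaling, and 5 at or below 25%, Platr16 at 0 among them each time. Shares over all genes are not given for these alternatives either. The zinc-finger sum of 84.7% of control was 73.5% without Zfp993 and 84.7% without overlapping loci. For the median, the cause was not tested.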
